A study of Mus musculus with 4 samples.

Results

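The regions described here are stretches of the mouse genome that held a CUT&RUN peak in every one of 4 libraries and lay between protein-coding genes. Each peak of the 4 deposited lists is a summit with 150 bp on either side, and peaks were merged where they shared 1 bp or more, over chromosomes 1 to 19. Of 258125 merged regions, 5140 held a peak of all 4 lists (1.99%), and 1166 of these had a midpoint outside every protein-coding gene interval and more than 1 kb from every gene end. They are called the shared intergenic regions below. They made up 0.452% of all merged regions and 22.7% of those in all 4 lists, while 2601 lay at gene ends (within 1 kb) and 1373 inside genes. They were selected on the presence of a peak in all 4 lists, so that presence is given as a description with no test.

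Both groups were medullary thymic epithelial cells of 4 to 5 week old mice, enriched by the surface protein EpCAM and sorted as mTEClo or mTEChi, with 2 libraries of each. All mice carried wild-type Trp53, the gene of p53, no treatment was named, and 500000 cells were used per condition. By the titles the antibody was against p53, by the protocol against BAF155, which belongs to the BAF complex that moves nucleosomes. Which of these the peaks mark is not settled by the labels. No library with a control antibody was analysed here, and nothing says that replicates came from separate mice. A p-value over libraries thus reflects how far these libraries spread, which may be technical variation alone.

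Medullary thymic epithelial cells show developing T cells the self-antigens of other tissues. The lo cells are in general less mature, and the hi cells carry more MHC class II and include those expressing Aire. In CUT&RUN a protein A-MNase fusion cuts DNA next to a bound antibody, and a peak is a place where the released fragments pile up. Away from protein-coding genes such peaks can lie at enhancers, at insulators, at starts of RNA genes, or at sequences that give signal with many antibodies.

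A part of the shared intergenic regions lay at starts of long noncoding RNA (lncRNA) genes, and 6 such starts are printed to show what these sequences look like. Each sequence runs from 250 bp before to 50 bp after the gene's start, 5′ to 3′ on the gene's strand (RefSeq, GRCm38.p6, the mm10 assembly). Mir22hg is the host gene of the microRNA miR-22. Judged by the worst of its ranks over the 4 libraries, its region led all shared intergenic regions, though other regions scored higher in single libraries. By the same measure D130051D11Rik was the next best with a summit within 100 bp of such a start. Chaserr is a lncRNA next to Chd2, a chromatin remodeller gene. Snhg8, Snhg16 and Snhg3 host small nucleolar RNAs, which guide the modification of ribosomal RNA. Chaserr and the Snhg genes were chosen after their values were seen. Capitals mark matches, on either strand, to GGGCGG (GC box, bound by Sp factors), CCAAT (bound by NF-Y), TGANTCA (AP-1), CCGGAA (Ets), CACGTG (E-box), the NRF1 palindrome, ATGGCGG (YY1), TATAAA (the TBP element) and a strict form of the p53 element, in which CATG stands before and after 6 other bases. No matches to different motifs overlapped in these 6 windows.
Mir22hg: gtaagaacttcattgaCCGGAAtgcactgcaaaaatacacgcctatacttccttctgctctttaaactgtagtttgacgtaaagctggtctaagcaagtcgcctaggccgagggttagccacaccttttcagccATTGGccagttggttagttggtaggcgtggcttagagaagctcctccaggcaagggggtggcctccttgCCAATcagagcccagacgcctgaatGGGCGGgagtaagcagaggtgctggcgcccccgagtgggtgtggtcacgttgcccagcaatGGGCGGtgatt
D130051D11Rik: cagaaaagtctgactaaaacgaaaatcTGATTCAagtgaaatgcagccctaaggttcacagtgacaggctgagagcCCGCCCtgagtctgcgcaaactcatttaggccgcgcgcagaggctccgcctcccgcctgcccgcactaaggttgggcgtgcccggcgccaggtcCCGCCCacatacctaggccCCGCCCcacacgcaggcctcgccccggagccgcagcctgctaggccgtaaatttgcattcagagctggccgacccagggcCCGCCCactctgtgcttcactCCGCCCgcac
Chaserr: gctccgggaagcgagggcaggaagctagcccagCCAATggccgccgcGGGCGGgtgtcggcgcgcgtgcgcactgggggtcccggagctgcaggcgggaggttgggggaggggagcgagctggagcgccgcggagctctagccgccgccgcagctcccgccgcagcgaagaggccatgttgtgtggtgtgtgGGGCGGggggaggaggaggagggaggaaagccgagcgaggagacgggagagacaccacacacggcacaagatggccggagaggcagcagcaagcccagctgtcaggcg
Snhg8: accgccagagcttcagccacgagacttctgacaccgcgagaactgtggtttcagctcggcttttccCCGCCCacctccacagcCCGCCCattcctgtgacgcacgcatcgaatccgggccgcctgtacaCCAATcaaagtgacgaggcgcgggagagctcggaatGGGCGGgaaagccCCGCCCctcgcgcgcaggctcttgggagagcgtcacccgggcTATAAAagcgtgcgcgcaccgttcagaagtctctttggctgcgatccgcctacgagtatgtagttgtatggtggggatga
Snhg16: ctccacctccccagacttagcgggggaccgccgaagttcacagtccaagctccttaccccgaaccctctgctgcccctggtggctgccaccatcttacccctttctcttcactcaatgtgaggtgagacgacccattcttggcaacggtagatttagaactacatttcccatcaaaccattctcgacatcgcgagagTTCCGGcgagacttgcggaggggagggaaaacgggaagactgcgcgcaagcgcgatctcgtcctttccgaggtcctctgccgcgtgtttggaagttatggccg
Snhg3: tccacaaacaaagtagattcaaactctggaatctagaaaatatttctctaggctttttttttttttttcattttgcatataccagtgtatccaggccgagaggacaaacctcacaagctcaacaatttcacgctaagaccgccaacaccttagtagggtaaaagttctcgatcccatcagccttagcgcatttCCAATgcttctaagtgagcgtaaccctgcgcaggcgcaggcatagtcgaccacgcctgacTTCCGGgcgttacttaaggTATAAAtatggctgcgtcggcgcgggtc

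The Mir22hg window lies at chr11:75461289-75461588 on the plus strand and D130051D11Rik at chr15:85634346-85634645, also plus. Chaserr lies at chr7:73558346-73558645, Snhg8 at chr3:123508287-123508586 and Snhg3 at chr4:132353637-132353936, all minus, and Snhg16 at chr11:116671410-116671709, plus. Counted from the start, with negative positions upstream, the 4 summits at Mir22hg (mTEClo replicates 1 and 2, then mTEChi replicates 1 and 2) stood at -130, -134, -124 and -127 bp, next to the CCAAT match that begins at -116 bp. In D130051D11Rik, with 5 GC box matches and 63.7% G and C, the summits stood at 85, 2, 36 and -8 bp in the same order. At Chaserr they stood at -275, -360, -281 and -307 bp, just beyond the printed stretch.

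Downstream of the Mir22hg start, 2306 bp from the midpoint of the region, begins the hairpin of miR-22 (chr11:75463716-75463810). Both mature arms are shown because their host carried the leading region, with the seed (bases 2 to 8) in capitals.
mmu-miR-22-5p: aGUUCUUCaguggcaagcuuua
mmu-miR-22-3p: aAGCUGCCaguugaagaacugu

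Across the whole set, 75 shared intergenic regions overlapped 91 such windows of 80 lncRNA genes. The median window held 55.7% G and C and 12 CpG dinucleotides, against 48.3% and 4 over all 11311 lncRNA windows on the same chromosomes, and 61.7% and 23 over the 2543 protein-coding windows in regions at gene ends in all 4 lists. A GC box stood in 42.9% of the 91 windows and in 16.3% of all lncRNA windows. Over all 31396 windows of that length, lncRNA and protein-coding together, it stood in 36.0%. For the CCAAT box the shares were 37.4%, 35.8% and 37.3%, for the Ets letters 18.7%, 7.94% and 15.1%, and for the E-box 14.3%, 5.83% and 7.14%. The AP-1 letters were in 5.49%, 9.25% and 7.84%. The strict p53 letters were in 1.10%, 0.628% and 0.688%. With 91 windows, 1.10% is the smallest nonzero share possible, and it is not read as an excess. NRF1 letters were in 2.2%, 0.301% and 0.968%, YY1 letters in 3.30%, 1.89% and 4.07%, and the TATA box in 9.89%, 15.2% and 13.6%. In the 2543 protein-coding windows at gene ends the GC box, CCAAT, Ets and E-box shares were 72.7%, 55.3%, 35.7% and 10.9%. There the AP-1, p53, NRF1, YY1 and TATA shares were 3.85%, 0.118%, 2.56%, 11.2% and 4.92%. Low shares among the 91 windows, as for NRF1, rest on few windows. Windows of 1 gene can overlap, so they are not independent, and these shares are descriptions. Sequence at the other shared intergenic regions was not used here.

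The lists held between 69359 and 89809 peaks, of which between 1.37% and 1.74% lay in shared intergenic regions. Sequencing depth is unknown, since peak lists carry no read counts. The score of a peak is the authors' own, taken here to be a −log10 p-value or q-value. It ran from 2.01 to 159 in the shared intergenic regions, and libraries are compared only through ranks. Scores are printed as the authors' values, and since depth is unknown a higher score in 1 library than in another is not read as a difference. To compare libraries, every region was ranked by its best score among the same 5140 regions in each library, as a percentile from 0 (lowest) to 100 (highest). A rise of 1 class of regions on this scale lowers the others.

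Shared intergenic regions ranked below regions at gene ends and close to regions inside genes, in every library. Their median percentile in mTEClo was 42.4 (replicate 1) and 43.0 (replicate 2), and in mTEChi 36.6 and 37.9. Values below keep this order of libraries. At gene ends the medians were 60, 58.9, 63.0 and 62.4. The difference from gene ends was -21.1 on average, from -15.9 to -26.4, and negative in 4 of 4 libraries (two-sided exact permutation test by sign flips, p = 0.125, the smallest that 4 libraries allow). From regions inside genes (medians 42.4, 45.9, 39.2 and 37.9) the difference was -1.37 (exact permutation test, p = 0.5), 0 in 2 libraries because of tied scores, and its sign was not stable between settings. Without mTEChi replicate 1 it was 0.0819 and without mTEChi replicate 2 it was 0.744. Few shared intergenic regions reached the 90th percentile of the common ranking, between 3.09% and 4.89% per library, against 13.7% to 16.0% of the regions at gene ends.

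**Figure D1:**
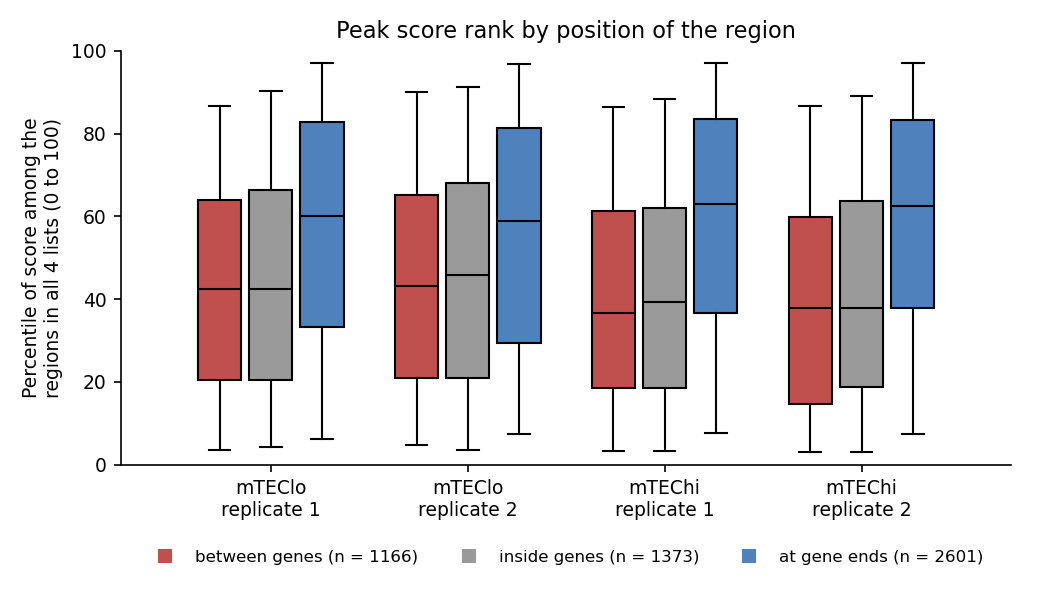
Percentile of the peak score among the 5140 regions in all 4 lists (y axis) for each library (x axis), split by position. Boxes show the quartiles with the median as a line, and whiskers reach the 5th and 95th percentiles. The medians between genes lie between 36.6 and 43.0 and those at gene ends between 58.9 and 63.0.

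The leading shared intergenic regions were chosen by the worst of their ranks over the 4 libraries. That they were high in all 4 follows from this choice. The leading one, at the Mir22hg start (chr11:75461255-75461565, 6602 bp from Wdr81), scored 46.0 and 51.4 in mTEClo, against 97.2 and 58.4 for the mTEChi pair. Its 4 summits lay within 10 bp, and its worst rank among the 5140 regions was 16. Next by worst rank came chr5:32713914-32714242, 22223 bp from Pisd, the gene of the mitochondrial phosphatidylserine decarboxylase, with scores of 56.0, 24.7, 116 and 43.7. A region 14155 bp from Tex35 (chr1:157084835-157085137) followed, with scores of 52.8, 58.4, 62.5 and 51.4. Its summits fell within 2 bp of each other.

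In the remainder of the leading 10 the percentiles ran from 89.9 to 99.5 over all libraries. They lay at Rab10os, a lncRNA gene 12031 bp from the gene of the small GTPase Rab10 (chr12:3235229-3235565), 8381 bp from H2-Aa, which encodes an MHC class II chain (chr17:34296027-34296381), and 17048 bp from the phosphatase gene Ptp4a2 (chr4:129793950-129794285). One lay inside the lncRNA gene Gm34755, 10458 bp from Klrb1b, a lectin receptor gene of natural killer cells (chr6:128803073-128803423), and one at the D130051D11Rik start (chr15:85634438-85634831). The last were 5219 bp from Slc5a9, a sugar transporter gene (chr4:111907804-111908225), and 2187 bp from Pisd (chr5:32733948-32734281). Of these 10, 4 were within 1 kb of an end of a lncRNA gene and 1 lay inside one. Among all shared intergenic regions, 29.2% lay in or within 1 kb of a lncRNA gene. For an end of any gene not coding for protein within 1 kb the share was 14.7%.

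The states were compared on the common ranking. The median percentile of the shared intergenic regions was 42.7 ± 0.454 in mTEClo and 37.2 ± 0.963 in mTEChi (SD, n = 2 each). The difference of -5.48 was larger than either SD (exact permutation test, two-sided, p = 0.333, the smallest that 2 against 2 allows). It was -2.76 without mTEClo replicate 1, -2.12 without mTEClo replicate 2, -3.33 without mTEChi replicate 1 and -2.35 without mTEChi replicate 2. With lncRNA and all other RefSeq genes counted as genes it was -2.78 (exact permutation test, p = 0.667). Regions at gene ends moved the other way, by 3.27 (exact permutation test, p = 0.333). The gap between the 2 classes was -16.7 ± 1.21 in mTEClo and -25.5 ± 1.38 in mTEChi (SD, n = 2; exact permutation test of the difference, p = 0.333). With 2 libraries a state this permutation test cannot pass a threshold of 0.05.

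Region by region, both mTEClo libraries ranked above both mTEChi libraries in 293 shared intergenic regions, 25.1% (95% Wilson interval 22.7 to 27.7), where the share over all regions in all 4 lists was 19.9%. Both mTEChi libraries ranked above both mTEClo libraries in 224, 19.2% (17.1 to 21.6), where that share was 20.4%. The mTEChi share is near its background. The mTEClo share lay above its background in these lists, and without mTEClo replicate 2 that excess was 2.13 percentage points (38.0% against 35.9%). At gene ends the shares were 16.4% for mTEClo and 21.8% for mTEChi, and inside genes 22.3% and 18.9%. Intervals cover counting error only, and regions are not replicates. In the remaining 649 shared intergenic regions the libraries of the states overlapped in rank.

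**Figure D2:**
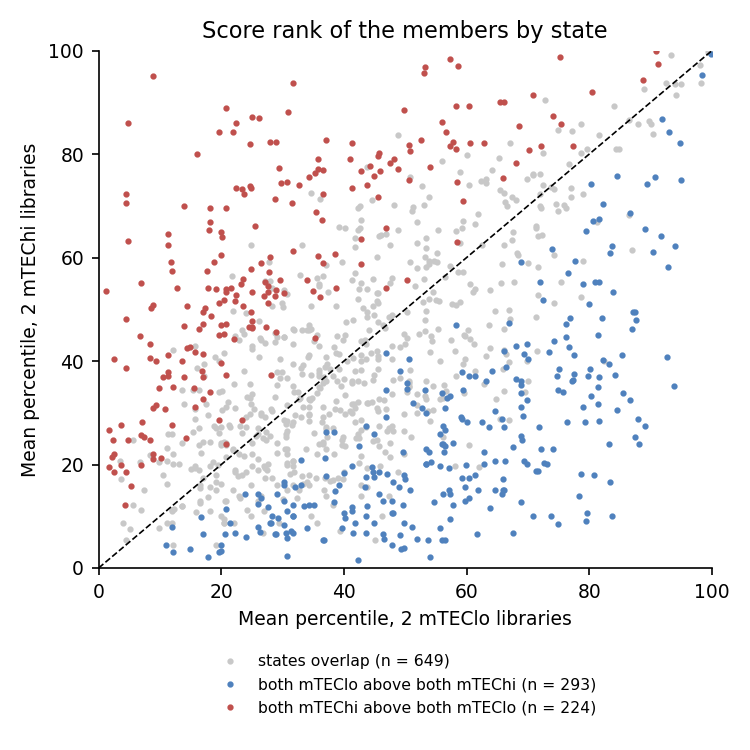
Mean percentile of each of the 1166 shared intergenic regions in the 2 mTEClo libraries (x axis) and the 2 mTEChi libraries (y axis), with equal values on the dashed line. Blue points are the 293 regions with both mTEClo libraries above both mTEChi libraries, red points the 224 of the opposite kind, and grey points the 649 whose states overlap.

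The regions with the widest gap toward mTEChi lay near genes of varied function. At chr1:132265505-132265921, 8331 bp from Lemd1, the scores were 2.55 and 3.8 in mTEClo against 43.3 and 17.9 in mTEChi. The percentiles were 0.924 and 16.9 against 96.9 and 93.2, so the region was among the lowest of the common ranking in 1 state and among the highest in the other. Scores 6967 bp from Acpp, an acid phosphatase gene (chr9:104281056-104281491), were 3.62 and 2.62 in mTEClo against 19.2 and 14.7 in mTEChi. The region 5654 bp from Kif3c, a kinesin motor gene (chr12:3359314-3359642), had 5.12 and 3.94 against 23.0 and 15.1. Beside an annotated small nuclear RNA gene, Gm25313, 9468 bp from Igdcc3 (chr9:65196320-65196678), the scores were 2.74 and 3.03 against 18.3 and 7.37. The fifth was over 50 kb from every protein-coding gene (chr14:102731729-102732163), with 5.66 and 4.93 against 41.9 and 15.6. Over the 5, percentiles ran from 0.924 to 37.6 in mTEClo and from 63.8 to 96.9 in mTEChi.

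Toward mTEClo the gaps were widest at a region 438 bp from an end of the lncRNA gene Gm36913 and 33414 bp from Fth1, the ferritin heavy chain gene (chr19:9946943-9947430), with mTEClo scores of 14.2 and 9 and mTEChi scores of 3.19 and 3.34. A region inside the lncRNA gene 9530026P05Rik (chr6:93060248-93060832) had scores of 12.0 and 8.71 against 3.4 and 2.91. At 7059 bp from Cdh3, the gene of P-cadherin, an adhesion molecule of epithelia (chr8:106563690-106564250), they were 12.0 and 14.5 against 3.62 and 3.05. The others lay 5628 bp from Syde2, inside the lncRNA gene Gm40166 (chr3:146026902-146027793), with 13.5 and 9.91 against 4.48 and 3.8, and 5004 bp from Dusp11 (chr6:85937009-85937519), with 11.3 and 7.15 against 3.19 and 2.88. Over these 5, percentiles ran from 65.1 to 93.7 in mTEClo and from 6.04 to 19.3 in mTEChi. The summits of these regions were spread over 187 to 399 bp, against 28 to 135 bp in the 5 toward mTEChi. These 10 were taken from the extremes of the ranking, so their differences carry no test.

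Summits between genes agreed less closely than those at gene ends, and about as closely as those inside genes. The 4 summits of a shared intergenic region spanned a median of 156 bp (quartiles 93 and 252), those inside genes 152 bp and those at gene ends 105 bp. A span of 50 bp or less was found in 7.29% of shared intergenic regions, 7.72% of regions inside genes and 16.8% of regions at gene ends. Over the 6 pairs of libraries the median distance between summits was 63.5 to 82 bp between genes. It was 68 to 77 bp inside genes and 46 to 53 bp at gene ends. Scores of the shared intergenic regions correlated between libraries with a Spearman rho of 0.357 within mTEClo, 0.463 within mTEChi and 0.212 to 0.264 between states. Inside genes rho was 0.359, 0.509 and 0.230 to 0.316, and at gene ends 0.511, 0.672 and 0.484 to 0.584. These correlations run across regions, which are not independent replicates, and unknown depth is shared by all regions of a library.

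Most shared intergenic regions were not far from a gene. The median distance to the nearest protein-coding gene end was 19686 bp (quartiles 6407 and 58354), against 59500, 34421 and 23618 bp for regions between genes with a peak in 1, 2 and 3 lists. Of the 1166, 238 (20.4%) lay within 5 kb, 596 (51.1%) from 5 to 50 kb, 318 from 50 to 500 kb and 14 beyond 500 kb. Where the region was over 50 kb from a gene, both mTEClo libraries ranked highest in 30.4%, against 21.8% within 5 kb and the 19.9% of all regions in all 4 lists. The share with both mTEChi libraries highest was 19.3% and 18.9%.

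**Figure D3:**
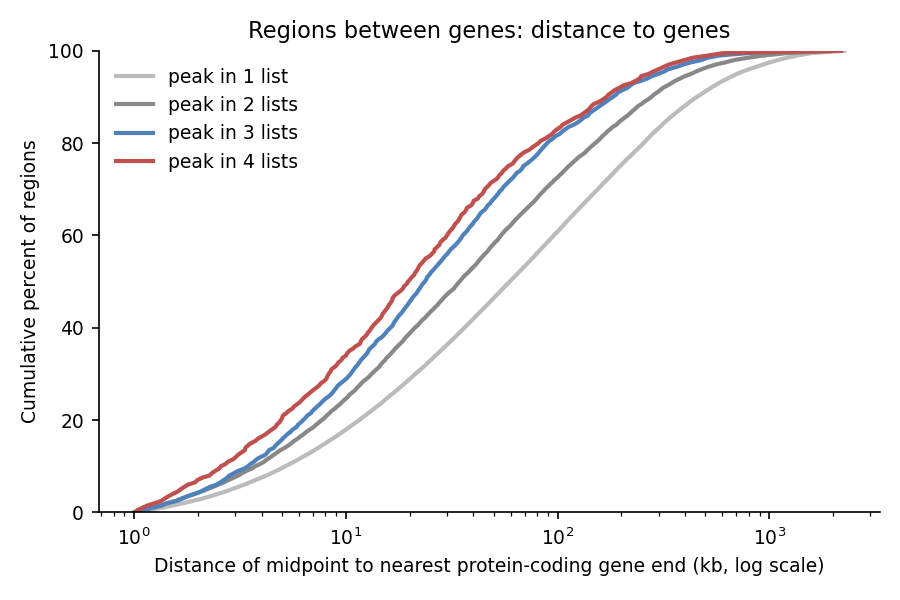
Cumulative percent of regions between genes (y axis) by the distance of the midpoint to the nearest protein-coding gene end in kb (x axis, log scale), with 1 line for each number of lists with a peak. The line for 4 lists lies to the left of the others over most of its range, with a median of 19686 bp against 59500 bp for 1 list.

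The most remote region lay 2187849 bp from any protein-coding gene end, inside the lncRNA gene Gm33860 (chr18:28077468-28078065), where the mTEClo libraries scored 7.39 and 7.15 and the mTEChi libraries 2.77 and 2.88. Others were 1345997 bp (chr12:94345813-94346205), 1133588 bp (chr10:16589449-16589832), 670979 bp (chr10:66337961-66338460) and 648768 bp away (chr14:71628416-71628800). The chromosome 12 region had percentiles of 79.0, 45.9, 72.4 and 77.1, and the chromosome 14 region 31.0, 58.9, 74.3 and 77.1, with both mTEChi libraries higher. In the chromosome 10 regions they were 58.1, 37.6, 18.4 and 2.94 at the more remote one, and 58.1, 29.4, 2.11 and 22 at the other, with both mTEClo libraries higher in each. At the limit of 1 kb, the closest regions kept were 1010 bp from Foxo3, 1014 bp from 2610524H06Rik and 1015 bp from Pkdcc. The nearest left out were 992 bp from Plekhb1, 990 bp from 2610028H24Rik and 989 bp from Lrrk1. Percentiles ran from 7.33 to 88.3 in the first 3 and from 0.302 to 89.9 in the second. Of the regions between genes, 2563 lacked a peak in 1 list only, which was mTEChi replicate 2 for 916, mTEClo replicate 2 for 783, mTEChi replicate 1 for 548 and mTEClo replicate 1 for 316. By chromosome, the share of regions between genes with a peak in all 4 lists ran from 0.600% (chromosome 5) to 1.43% (chromosome 17). Over all these chromosomes it was 0.953%.

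Genes that do not code for protein, which the rule did not use, lay at or near 369 of the 1166 shared intergenic regions (31.6%, 95% Wilson interval 29.0 to 34.4, inside or within 1 kb). For regions between genes with a peak in 1, 2 and 3 lists the share was 19.7%, 22.4% and 27.0%. By midpoint, 9.61% (8.03 to 11.5) of the shared intergenic regions lay within 1 kb of a lncRNA start, against 1.86%, 3.02% and 4.93%. Among regions over 10 kb from protein-coding genes the shares for 1, 2, 3 and 4 lists were 1.86%, 3.23%, 5.33% and 8.74%. Lists differ in length and depth is unknown. With equal list lengths the share of shared intergenic regions at or near genes not coding for protein was 32.0%. The shares for 1, 2 and 3 lists were not taken again at equal length. Whether length or depth plays a part in the differences between them was not tested. Chromosome 18 has no value in this count.

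**Figure D4:**
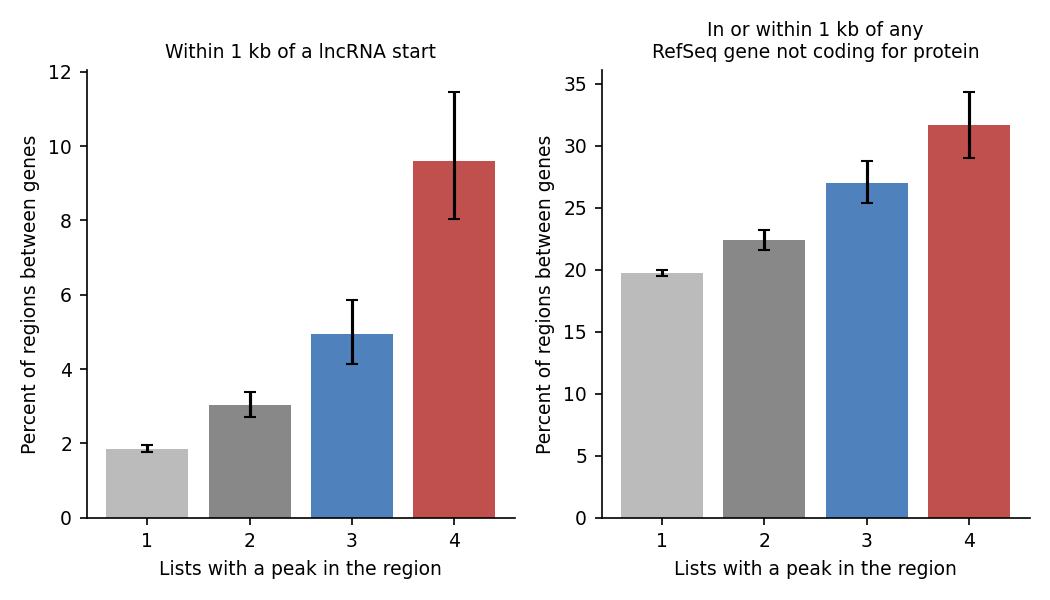
Percent of regions between genes (y axes) that lie within 1 kb of a lncRNA start (left) or in or within 1 kb of any RefSeq gene that does not code for protein (right), by the number of lists with a peak (x axes). Error bars are 95% Wilson intervals, and the shares for 4 lists are 9.61% and 31.6%.

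Measured by the mean of the 4 summits, 107 of 1134 shared intergenic regions had a lncRNA start within 1 kb. The median position was -32 bp (quartiles -198 and 224 bp), and 55.1% lay upstream. Regions at gene ends had a protein-coding start within 1 kb in 83.6% of cases, at a median of -85 bp, with 80.4% upstream. The regions at lncRNA starts ranked at a median percentile of 40.5 and 48.7 in mTEClo against 40.4 and 42.6 in mTEChi. They differed from the other shared intergenic regions by 3.19 on average, from -1.90 to 6.08, so the direction was not the same in all 4 libraries (exact permutation test by sign flips, p = 0.25). This split was added after the data had been seen.

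The Snhg genes are a family of lncRNA genes with several of these regions at their starts. Of 16 Snhg genes with a start in the table, 7 (43.8%) had a shared intergenic region within 1 kb of it, against 105 of all 9291 lncRNA genes (1.13%). Neither total was limited to starts between protein-coding genes, although the rule keeps only regions there. This family was picked after its values were seen, so its share is a description. The 7 were Snhg3, Snhg5, Snhg7, Snhg8, Snhg12, Snhg15 and Snhg16. At Snhg16 the scores were 9.07 and 7.15 in mTEClo against 15.9 and 14 in mTEChi, which put both mTEChi libraries higher in rank. At Snhg15 they were 9.94 and 6.57 against 6.92 and 4.87, the opposite order. At Snhg8 they were 6.21, 5.46, 8.46 and 4.88, and at Snhg3 7.39, 4.42, 5.4 and 6.01, with overlapping ranks. Snhg12 had 6.79 and 5.46 against 5.07 and 2.04, and both mTEClo libraries ranked higher. At Snhg7 the percentiles were 15.4, 37.6, 36.6 and 51.5 and at Snhg5 10.4, 37.6, 22.8 and 14.1, with overlapping states. Over the 7 regions the percentiles ran from 0.584, at Snhg12, to 88.4, at Snhg16. Chaserr had scores of 12.7, 9, 17.6 and 11.7.

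Genes of short RNAs were few in number. A transfer RNA gene lay within 1 kb of 16 shared intergenic regions (1.37%, against 0.0990%, 0.278% and 0.702% of regions between genes in 1, 2 and 3 lists). The highest in rank lay 358 bp from n-TAagc8, an alanine tRNA gene, with scores of 18.1, 11, 21.2 and 13.1. Small nuclear RNA genes, whose RNAs serve in splicing, lay within 1 kb of 8 (0.686%, against 0.0768%, 0.134% and 0.117%). In 4 of these 8 both mTEChi libraries ranked above both mTEClo libraries, and in 0 the reverse, where 20.4% and 19.9% of all regions in all 4 lists did so. The largest of those gaps was at Gm25313, described above, and Gm25099, 127 bp from its region, had 4.6 and 6.57 in mTEClo against 28.0 and 9.2 in mTEChi. Among the 16 at tRNA genes, 5 ranked higher in mTEChi and 1 in mTEClo, beside the same 20.4% and 19.9%. These classes were chosen after their values were seen, and tRNA and small nuclear RNA genes have many near-identical copies in the genome, which can share reads.

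Small nucleolar RNA genes lay within 1 kb of 8 (0.686%, against 0.166%, 0.172% and 0.156%), among them Snhg hosts. The widest gap of these was 701 bp from the annotated small nucleolar RNA gene LOC115487884 (chr11:6527163-6527502), where the mTEClo libraries scored 8.63 and 6 and the mTEChi libraries 41.5 and 20.7.

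Only Mir210 among microRNA genes lay within 1 kb of a shared intergenic region. This is 0.0858% of them, within the range of the 0.0666%, 0.163% and 0.0390% of regions between genes in 1, 2 and 3 lists. Mir210 encodes the hypoxia-induced miR-210. Its hairpin is on the minus strand, and its 5′ start was 382 bp from the midpoint of chr7:141221692-141222058, which lay upstream. The scores of this region were 3.57 and 7.57 in mTEClo against 7.71 and 8.53 in mTEChi. The percentiles were 4.93, 68.1, 42.9 and 69.9, so 1 mTEClo library stood apart from the other.

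For each shared intergenic region the closest protein-coding gene, up to 50 kb away, was taken. In all, 834 regions had such a gene, and 743 of 20665 genes (3.60%) were named in this way. Of 45 p53 targets 8 (17.8%) were named, of 26 genes of thymic epithelial identity 6 (23.1%), of 22 mature mTEC genes 5 (22.7%) and of 20 immature mTEC genes 3 (15%). Of 30 BAF subunit genes 1 was named (3.33%), of 18 thymocyte genes 3 (16.7%), and of 17 B cell and myeloid genes 0. The count was also made over regions. Of the regions between genes within 50 kb of their nearest gene, 1.42% held a peak in all 4 lists. The share was 4.85% (10 of 206) around p53 targets, 6.70% (12 of 179) around identity genes, 6.93% (7 of 101) around mature mTEC genes and 4.55% (5 of 110) around immature mTEC genes. Around BAF subunit genes it was 0.820% (1 of 122), around thymocyte genes 3.61% (3 of 83) and around B cell and myeloid genes 0 of 50. A count of 0 allows up to 3 counts, and with 50 regions it cannot be told apart from the 1.42%. The rule itself used presence in all lists, the gene lists were drawn up with earlier results known, and the nearest gene need not be a target, so these shares carry no test.

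Among the p53 targets, the region nearest to Cdkn1a, the cell cycle inhibitor p21, lay 11869 bp from the gene (chr17:29078900-29079321), and its midpoint was 16 bp from an end of Trp53cor1. Trp53cor1 is the lncRNA known as lincRNA-p21, which p53 induces. Its scores were low, at 6.21 and 3.03 in mTEClo against 6.05 and 2.45 in mTEChi, and the states overlapped. The strongest of this list was the region 5194 bp from Sesn2, a stress-induced regulator of mTORC1, which is the one beside n-TAagc8 (chr4:132515480-132515820). A region 1357 bp from Thbs1, the gene of thrombospondin (chr2:118110330-118110708), had 13.2 and 16.1 in mTEClo against 5.99 and 4.74 in mTEChi, with percentiles of 77.9 and 95.6 against 30.2 and 34.6. Foxo3, a forkhead factor gene, had 4.69 and 11 against 19.4 and 4.18, a spread within each state as wide as between them. The others were near Btg2 and Phlda3 (a pair of regions each), Sfn and Trp53inp1. Over the 10 regions, 1 ranked higher in mTEChi and 3 in mTEClo, near the 19.2% and 25.1% of all shared intergenic regions (20.4% and 19.9% of all regions in all 4 lists).

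Around mature mTEC genes the regions ranked high. Their median percentile was 68.2 and 90.5 in mTEClo against 86.5 and 89.9 in mTEChi. Over all shared intergenic regions it was 42.4, 43.0, 36.6 and 37.9. Of the 7, 4 lay in the MHC class II locus, whose genes present antigen to CD4 T cells. The region 8381 bp from H2-Aa scored 31.0 and 21.2 in mTEClo, against 33.3 and 22.6 in mTEChi. In percentiles these are 98.6 and 98.3 against 94.6 and 95.9, so on the common ranking mTEClo was the higher. Close to H2-Ab1, a region at 1500 bp (chr17:34261571-34261884) had 15.8, 13.6, 30.9 and 16.3, and its summits spanned 13 bp. The other region of H2-Ab1, at 5451 bp (chr17:34257607-34257946), had 11 and 7.08 in mTEClo against 22.1 and 18.8 in mTEChi, and both mTEChi libraries ranked higher. Near H2-Eb1 (chr17:34301134-34301480) the scores were 10.2, 12.5, 17.4 and 14.8. Ciita, the master activator of class II genes, had a region at 14562 bp (chr16:10465226-10465678) with 10.6, 13.1, 6.6 and 11.8. Tnfrsf11a, the gene of RANK, a receptor needed for mTEC maturation, had one at 17554 bp (chr1:105866815-105867181) with 13.5, 12.2, 28.3 and 13.3, and a weaker one at 31628 bp. RANK also stands in the immature list, and 1 of 7 regions ranked higher in each state, where 20.4% (mTEChi) and 19.9% (mTEClo) of all regions in all 4 lists did.

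**Figure D5:**
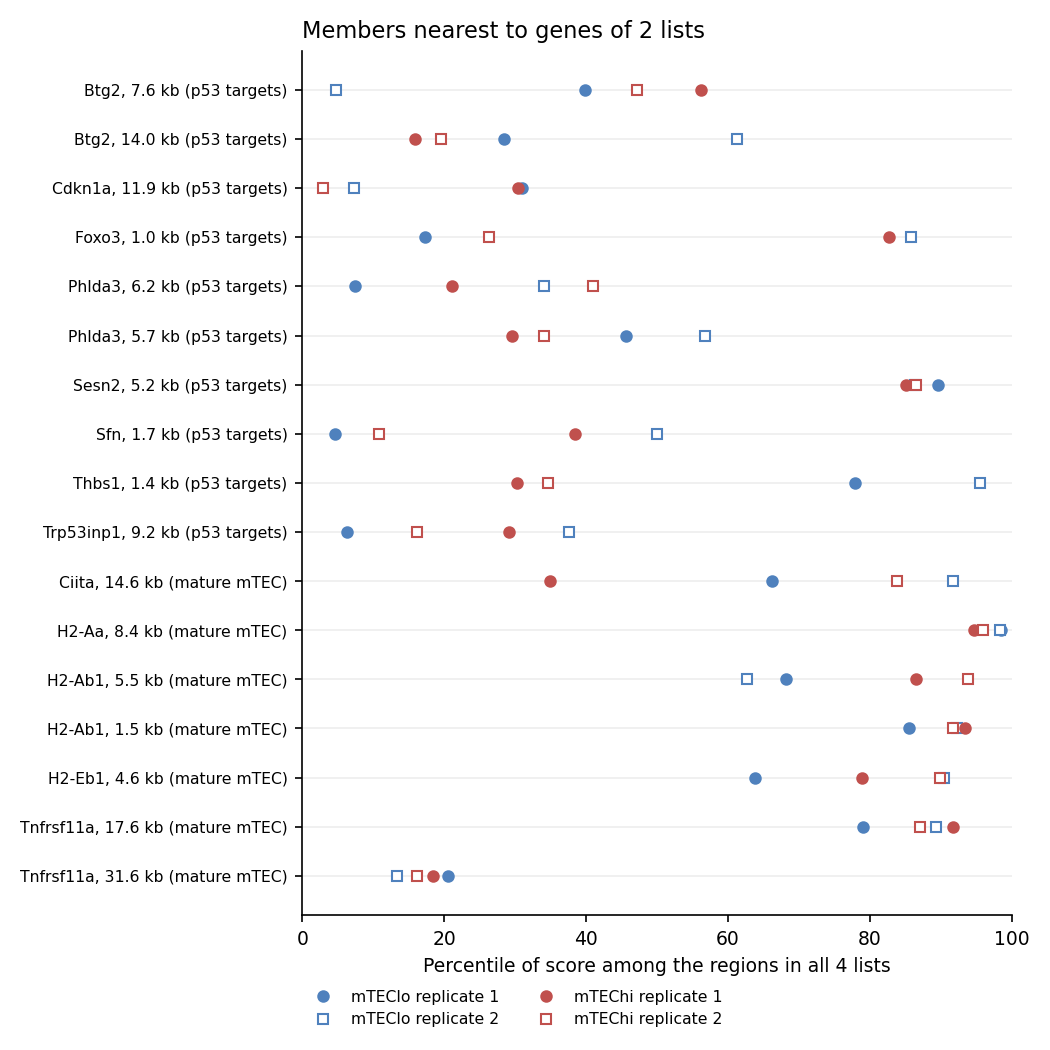
Percentile among the 5140 regions in all 4 lists (x axis) of each shared intergenic region nearest to a p53 target or mature mTEC gene, with the gene and its distance in kb on the y axis. Blue symbols are mTEClo, red symbols mTEChi, circles replicate 1 and squares replicate 2, and the regions of H2-Aa and Sesn2 have all 4 libraries close together.

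Identity genes had 12 regions, of which 3 ranked higher in mTEChi and 5 in mTEClo (20.4% and 19.9% of all regions in all 4 lists, 19.2% and 25.1% of the shared intergenic regions). Cldn3, which encodes a tight junction claudin of mTECs, had the strongest, 19595 bp from the gene (chr5:134966423-134966815), with scores of 10.7 and 5.83 in mTEClo against 53.6 and 22.8 in mTEChi. The percentiles were 67.4 and 49.8 against 98.0 and 96.1, and the second Cldn3 region had the same order at lower rank. Toward mTEClo, a region 36928 bp from Pax1, a factor of thymus development (chr2:147324673-147325331), had 9.94 and 5.46 against 2.38 and 2.45. Krt18, a keratin gene of simple epithelia, had 3 regions, with percentiles from 13.2 to 69.3, and the 2 regions each of Epcam and Ctsl ranged from 2.94 to 72.7.

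Immature mTEC genes had 5 regions, at Plet1, Sox9 and Tnfrsf11a. The Sox9 region, 34905 bp from that epithelial transcription factor gene (chr11:112822485-112822839), had low scores of 4.10 and 3.48 in mTEClo against 3.62 and 2.88 in mTEChi. The thymocyte genes Bcl11b, Cd2 and Dntt each had 1 region, at 47116, 30848 and 13162 bp, with percentiles from 16.3 to 70.2. Bcl11b is also the 1 BAF subunit gene counted. Among the B cell and myeloid genes, Cd79a and Itgax were without a region. A part of other cells in these regions was not tested.

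Some regions lay in groups. Of the 1166, 120 (10.3%) were closer than 10 kb to another, in 56 groups, 50 of them pairs. One of the 2 groups of 4 lay 10347 to 24788 bp from Ptma, the prothymosin alpha gene (chr1:86501557-86501981 is its first region). Its highest percentile was 78.7, in mTEChi replicate 1, and its lowest 3.32, in the same library. The other lay 30231 to 37101 bp from Cd69, the gene of an early activation marker of lymphocytes, and 3 of its 4 regions were at or in the lncRNA gene 2310001H17Rik. Its strongest region (chr6:129232899-129233223) had scores of 14.5, 17.6, 13.1 and 11, with summits within 24 bp. A group of 3 between Btg2, an antiproliferative p53 target, and Chit1, a chitinase gene, started at chr1:134092939-134093451. In its member 10112 bp from Chit1 (chr1:134100927-134101334) the scores were 11.2 and 14.7 in mTEClo against 5.69 and 7.13 in mTEChi, and the mTEClo libraries ranked higher.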

How the data were processed

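CUT&RUN libraries of mTEClo and mTEChi, 2 each, were grouped by their titles. The tools were MACS2 2.2.7.1, SAMtools 1.9, Picard and Bowtie2 2.2.9 with the mm10 build, per the submitters' processing notes. Their settings, and any control, are not stated there. The authors deposited 1 list per library of summits with 150 bp on each side. Each peak carries the authors' score, taken here to be a −log10 significance; whether of p or of q is unknown. Read depth is unknown.

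Midpoints of merged regions were placed against 20665 protein-coding and all other RefSeq genes of GRCm38.p6 (chromosomes 1 to 19), whose table gives start and end without strand or exons. Intron, exon and UTR classes were therefore not assigned. lncRNA starts and strands came from the RefSeq start windows; chromosome 18 was not used there. Coordinates count from 1. Ties in score share a mean rank.

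Tests were two-sided exact permutations over libraries. Regions were named by fixed rules: the 10 lowest worst ranks, 5 per state by gap between states, 5 farthest from genes, up to 8 at other RefSeq genes (microRNA genes first), 3 groups of neighbours, 3 on either side of the 1 kb limit, and those nearest to genes of 7 lists; 174 of 175 list genes matched a symbol on these chromosomes. Members, lists and rules were chosen with earlier results of these data known. Alternatives were peaks at or above the median score, equal list lengths of 69359, 75 bp flanks, a 5 kb gene end limit, all RefSeq genes, each library left out, the replicate number as a block, and a 100 kb gene limit. Results for some list genes are not reported here. Region steps were tested on simulated data. Scripts ran on scipy 1.17.1, pandas 2.3.3, numpy 2.4.6 and matplotlib 3.10.9 under Python 3.11.15.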

Additional observations from a re-analysis of the deposited data

How the results depend on the processing

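The difference from regions at gene ends stayed negative in every alternative run, from -16.7 with a 5 kb gene end limit to -22.2 with 75 bp flanks. The difference between states also stayed negative, from -2.12 to -6.91. With the replicate number as a block it was -5.48 (exact permutation test, p = 0.5, the smallest that 2 pairs allow). Region by region, same-numbered libraries did not deviate together (correlation of deviations -0.00395). Library-wide values did go by number. Within the whole list, peaks in shared intergenic regions had a median percentile of 88.7 (mTEClo) and 88.9 (mTEChi) in replicate 1. In replicate 2 it was 79.7 and 80.5. The single missing list was also more often a replicate 2 (783 and 916 regions) than a replicate 1 (316 and 548). Whether the numbers mark a batch was not tested. The difference from regions inside genes turned positive with a 5 kb limit (1.30), and ran from -0.901 to 0.744 with a library left out; the cause was not tested.

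Peaks at or above the median score gave 616 regions, 124 higher in mTEChi and 161 in mTEClo, with a summit span of 132 bp. The span was 126 bp with 75 bp flanks, which limit it. With all RefSeq genes 149 regions ranked higher in mTEChi, among 797 regions, and the share at other genes has no value by construction. With a library left out a region needs only 3 lists: the number of regions ran from 1460 to 2064, those higher in mTEChi from 482 to 696 and in mTEClo from 603 to 786. The span then ran from 128 to 134 bp and the share at other genes from 28.9% to 30.9%. In these 9 settings the mTEClo share exceeded that of all ranked regions by between 2.13 and 6.03 percentage points. Unknown depth limits all ranks, and 2 libraries per state limit every test.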

Other observations

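On chromosome X, which the rule leaves out, 22 merged regions held a peak in all 4 lists and 3 of them lay between genes.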
